A study of Mus musculus with 11 samples.

Results

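The comparison described here set Ly-6D+ common lymphoid progenitors (CLPs) against Ly-6D- CLPs from mice given CpG, with 3 arrays of each population, 6 of the 11 arrays of the series. Each array was placed by its title, which names a population, a treatment and a replicate number used here to name the array, and the difference was described over all 22180 genes that had a probe set of their own. All mice were C57BL/6 and none of the labels names a further allele. Mice received 50 µg of CpG1826 or PBS every other day over 10 days, and CLPs were sorted from bone marrow on day 10 straight into lysis buffer. The other arrays were 2 of Ly-6D+ CLPs and 3 of Ly-6D- CLPs after PBS, which served as the reference without CpG. Sex, age, cell numbers and pooling of mice were not given in the sources used here, nor whether replicates came from separate animals, so p-values measure only the spread between these samples, which may be technical.

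CLPs are bone marrow progenitors marked by the interleukin-7 receptor and FLT3 that give rise to B cells, T cells, NK cells and some dendritic cells. The surface protein Ly-6D divides them into a Ly-6D- fraction with broad lymphoid potential and a Ly-6D+ fraction in which the B-lineage programme has begun, and it is also found on precursors of plasmacytoid dendritic cells. That programme is run by the transcription factors EBF1, PAX5, TCF3 and FOXO1, which switch on the surrogate light chain, the CD79 signalling chains and the recombination machinery. CpG1826 is an unmethylated CpG oligonucleotide that signals through the endosomal receptor TLR9.

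The 12 genes of the lists of B-lineage transcription factors and pre-B-cell receptor components that passed as higher in Ly-6D+ CLPs after CpG were searched for the EBF1 core CCCNNGGG on both strands, in the 300 bases from 250 before to 50 after the transcription start in RefSeq (GRCm38.p6). A match lay in the promoters of 3 of them, printed here 5′ to 3′ with the match in capitals to show where the searched letters lie. They are Igll1 (chr16:16863936-16864235, minus strand), Spib (chr7:44532022-44532321, minus strand, with 2 overlapping matches) and Foxo1 (chr3:52268087-52268386, plus strand).
Igll1: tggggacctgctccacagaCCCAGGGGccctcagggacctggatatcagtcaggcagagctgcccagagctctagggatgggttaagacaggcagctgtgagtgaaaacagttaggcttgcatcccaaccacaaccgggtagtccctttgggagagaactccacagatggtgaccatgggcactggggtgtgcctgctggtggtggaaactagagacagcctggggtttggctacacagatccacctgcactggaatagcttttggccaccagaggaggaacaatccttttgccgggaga
Spib: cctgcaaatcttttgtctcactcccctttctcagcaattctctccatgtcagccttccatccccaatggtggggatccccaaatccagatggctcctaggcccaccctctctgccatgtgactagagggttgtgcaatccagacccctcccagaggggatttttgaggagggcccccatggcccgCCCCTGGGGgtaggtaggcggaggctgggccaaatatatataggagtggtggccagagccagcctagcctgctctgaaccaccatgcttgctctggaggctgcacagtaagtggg
Foxo1: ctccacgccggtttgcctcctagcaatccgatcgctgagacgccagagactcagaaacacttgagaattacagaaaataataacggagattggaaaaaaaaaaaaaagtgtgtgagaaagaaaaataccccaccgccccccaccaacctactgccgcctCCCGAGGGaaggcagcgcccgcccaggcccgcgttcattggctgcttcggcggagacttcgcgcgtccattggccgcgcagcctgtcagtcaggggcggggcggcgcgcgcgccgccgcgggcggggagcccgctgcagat
The Igll1 match began at base -231 and the Foxo1 match at base -91 from the start. A match is a run of letters and not a measured binding site, and the promoters of the other 9 genes held none in this window.

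Over all genes, the EBF1 core was in 15.8% of 20611 promoters, against 21.2% of 288 promoters of genes higher in Ly-6D+ CLPs and 20.7% of 203 promoters of genes lower. An E-box written CANCTG, which E proteins bind, was in 49.0% of all promoters, in 56.9% of those of higher genes and in 51.7% of those of lower genes. The PU.1 core AGGAAGT was in 9.10% of all promoters, in 13.5% of those of higher genes and in 15.3% of those of lower genes. The STAT core TTCNNNGAA was in 7.89%, 5.56% and 8.37% of the same 3 sets. No test was made of these shares. Of the genes, 205 of the 266 higher and 167 of the 208 lower had a promoter in the table.

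Values are log2 levels after RMA, so a difference of 1 is a doubling. RMA sets the probe intensities of all arrays to a common distribution, but the array medians over all 41345 probe sets still ran from 3.85 to 3.96. Ly6d, the gene of the sorting antigen, checked the labels: it read 12.55, 12.57 and 12.61 in Ly-6D+ CLPs after CpG and 7.63, 7.47 and 8.08 in Ly-6D- CLPs. The CLP genes Il7r, Flt3 and Kit were read in both populations, with Flt3 at 10.67, 10.79 and 10.67 against 10.53, 10.36 and 10.72, a difference of 0.17 that did not pass (adjusted p = 0.543). Among genes of mature lineages, Cd3e of T cells lay between 3.01 and 3.85 on the 6 arrays and Ms4a1 of B cells between 2.41 and 2.75, while Itgam of myeloid cells lay between 6.67 and 7.81. Correlations over all 41345 probe sets were 0.978 to 0.982 within the CpG groups and 0.974 to 0.979 between them. The first principal component, 27.3% of the variance, put all Ly-6D+ arrays between -25.6 and -16.3 and all Ly-6D- arrays between 13.4 and 23. On the second, 15.8% of the variance, both CpG arrays numbered 3 stood apart from the other CpG arrays, at 0.4 and 0.7 against -22.7 to -11.6, so the counts of genes and list members that passed were also taken without all arrays numbered 3.

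After CpG, 474 genes (2.14% of 22180) differed between the populations, 266 (1.20%) higher and 208 (0.938%) lower in Ly-6D+ CLPs (limma over all 11 arrays, Benjamini-Hochberg adjusted p below 0.05). Those higher by most included Igll1, Cd79a and Vpreb2 of the pre-B-cell receptor and the B-lineage regulator Ebf1. Those lower by most were led by Myct1 and F13a1, and 10 of the 15 largest differences downward were of genes on none of the lists used. At least a doubling was seen for 112 higher and 87 lower genes, a log2 difference of at least 2 for 24 and 11, and of at least 3 for 13 and 2. The median difference was 0.87 among the genes higher and -0.93 among those lower, and -0.00 over all genes. No gene among the 474 had arrays of the populations overlapping, so separate arrays add no support to a gene that passed. Arrays were likewise separate in 16.9% of the genes tested (7.89% higher and 9.04% lower). At an unadjusted p below 0.05 there were 2820 genes (12.7%).

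The split between higher and lower depended on the scale. With each array centred on its median, 216 genes were higher and 253 lower, and a further quantile normalisation gave 256 and 250. Leaving out Ly-6D- CpG array 2 gave 161 higher and 103 lower, and leaving out Ly-6D- CpG array 1 gave 164 and 131. The lower count was 123 without Ly-6D+ CpG array 1 and 134 without Ly-6D+ CpG array 3. Without all arrays numbered 3 the counts were 166 and 134.

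**Figure D1:**
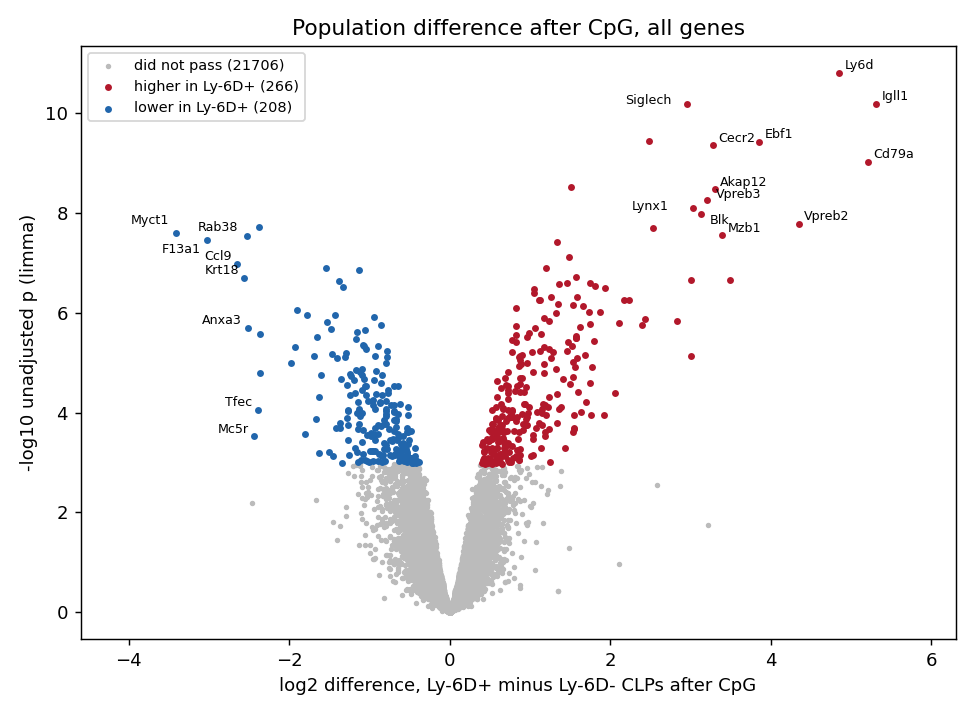
Each point is 1 of 22180 genes, with the log2 difference between Ly-6D+ and Ly-6D- CLPs after CpG on the x axis and -log10 of the unadjusted limma p on the y axis; red points passed as higher (266), blue points as lower (208). Ly6d, the sorted antigen's own gene, and the surrogate light chain gene Igll1 stand at the upper right, and Myct1 and F13a1 at the far left.

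Igll1 and Cd79a showed the largest differences of all genes. The pre-B-cell receptor joins a surrogate light chain, to which Igll1 contributes, with the CD79 signalling chains. Of 6 genes on that list, 4 were higher in Ly-6D+ CLPs, against 1.20% of all genes, and none was lower. The list median was 3.77, against -0.00 over all genes. In sorted bulk samples, more cells of a type and more RNA per cell cannot be told apart. Igll1, the lambda5 chain, read 9.88, 9.51 and 10.17 in Ly-6D+ CLPs after CpG and 4.08, 4.81 and 4.73 in Ly-6D- CLPs. The difference was 5.31 (SE 0.20), 39.8-fold, with an adjusted p of 4.93e-07. Cd79a, one of the signalling chains, read 9.28, 8.81 and 9.32 against 4.60, 3.62 and 3.58, and was 36.9-fold higher (log2 5.21, SE 0.26, adjusted p = 2.95e-06). Vpreb2 read 10.16, 9.66 and 10.32 against 5.6, 5.96 and 5.54, a difference of 4.35 (SE 0.28, adjusted p = 2.77e-05). Vpreb2 has a near-identical copy, Vpreb1, whose own probe set stayed between 3.77 and 4.43 on all 6 arrays, so which copy gave the signal is uncertain. Vpreb3, a partner protein of the nascent receptor, was 9.2-fold higher (adjusted p = 1.20e-05). Cd79b read 9.44, 9.24 and 9.39 against 8.84, 8.88 and 8.71, apart on every array, but its difference of 0.55 did not pass (adjusted p = 0.0611).

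Of 15 transcription factors of the B lineage measured, 8 were higher in Ly-6D+ CLPs, against 1.20% of all genes. None was lower, and the list median was 0.86. Ebf1, the initiating factor, read 8.85, 8.43 and 8.62 against 4.82, 4.41 and 5.12, 14.4-fold higher (log2 3.85, SE 0.17, adjusted p = 1.62e-06). Pax5, which holds cells in the lineage, read 6.94, 6.71 and 7.12 against 4.18, 4.40 and 4.60, a difference of 2.53 (SE 0.17, adjusted p = 2.92e-05). Neither call was lost when any 1 array was left out. Foxo1, which drives Il7r and Rag expression, read 7.43, 7.49 and 7.82 against 6.48, 6.29 and 6.48, a difference of 1.17 (SE 0.14, adjusted p = 0.00119). A second probe set of Foxo1 gave 0.67 (adjusted p = 0.0523).

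Pou2af1, a coactivator of octamer-dependent promoters, was higher by 2.83 (SE 0.29, adjusted p = 5.48e-04), and Spib, an ETS factor shared with plasmacytoid dendritic cells, by 3.0 (SE 0.37, adjusted p = 0.00154). Spib was spread among the Ly-6D- arrays, at 6.09, 4.99 and 4.41 against 7.98, 7.97 and 8.53. Lef1, a nuclear partner of beta-catenin, was higher by 1.63 (adjusted p = 0.00969, and 0.0636 in a fit of the 6 CpG arrays alone), and Irf4, which acts in light chain recombination and in plasma cells, by 1.19 (adjusted p = 0.00801). Bach2, a repressor of plasma cell genes, was higher by 0.86 (adjusted p = 0.0455), a call that ended in 9 of the 11 fits that left out 1 array, with an adjusted p of up to 0.157 without Ly-6D- CpG array 1. Among the 7 that did not pass, the E protein gene Tcf3 differed by 0.08 (95% interval -0.14 to 0.29), Myb by 0.20 (0.00 to 0.39), Erg by -0.01 (-0.30 to 0.28) and Ikzf1 by 0.42 (adjusted p = 0.0600).

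Signalling and surface molecules of the B-cell receptor were higher in part. Of 17 listed genes 13 were measured, and 5 were higher, against 1.20% of all genes. None was lower, and the list median was 0.49. Blk, a SRC-family kinase of B cells, read 7.46, 7.59 and 7.73 against 4.28, 4.18 and 4.95, 8.73-fold higher (log2 3.13, SE 0.19, adjusted p = 1.91e-05). The adaptor Blnk, which links the receptor to downstream kinases, read 10.44, 10.48 and 10.48 against 8.42, 8.22 and 8.97, a difference of 1.93 (adjusted p = 1.93e-04). Both were clear of overlap on every array, as was every gene that passed. Fcrla, an Fc receptor-like protein of B cells, was higher by 2.43 (adjusted p = 5.26e-04), Bst1 by 1.17 (adjusted p = 0.00274) and the PI3-kinase adaptor Pik3ap1 by 0.77 (adjusted p = 0.00136). The kinase gene Syk differed by 0.49 without passing (adjusted p = 0.0659), Btk by -0.13 (95% interval -0.38 to 0.12) and Cd24a by 0.06 (-0.16 to 0.28).

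Receptor and recombination genes of early lymphoid cells differed by less. Il7r, the receptor chain that CLPs need for B-cell development, read 10.70, 10.85 and 10.58 against 9.17, 9.05 and 9.53, 2.76-fold higher (log2 1.46, SE 0.13, adjusted p = 1.76e-04). It was the only one of 10 measured genes of the early cytokine receptor list to pass as higher. Of all genes 1.20% passed as higher and 0.938% as lower. Kit, the stem cell factor receptor, was the only one of that list to pass as lower. It read 8.18, 8.40 and 8.28 against 8.85, 8.84 and 9.18, a difference of -0.67 (SE 0.12, adjusted p = 0.0160). That call ended without Ly-6D+ CpG array 1 (adjusted p = 0.0736) and without Ly-6D+ CpG array 3. Of 8 recombination genes measured 2 were higher, against 1.20% of all genes, and the list median was 0.13. Rag2, the partner of RAG1 in the recombinase, read 9.77, 9.77 and 9.57 against 8.69, 8.92 and 8.92, a difference of 0.86 (SE 0.11, adjusted p = 0.00157). Xrcc6, the Ku70 end-joining subunit, was higher by 0.60 (adjusted p = 0.0121) and lost its call without Ly-6D- CpG array 2 (adjusted p = 0.0597), without Ly-6D- CpG array 1 and without Ly-6D+ CpG array 2. Dntt, the terminal transferase, read 12.19, 12.27 and 12.18 against 11.96, 11.90 and 12.16 and did not pass (difference 0.20, adjusted p = 0.392). Rag1, whose probe set is shared with other symbols, was not analysed here.

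**Figure D2:**
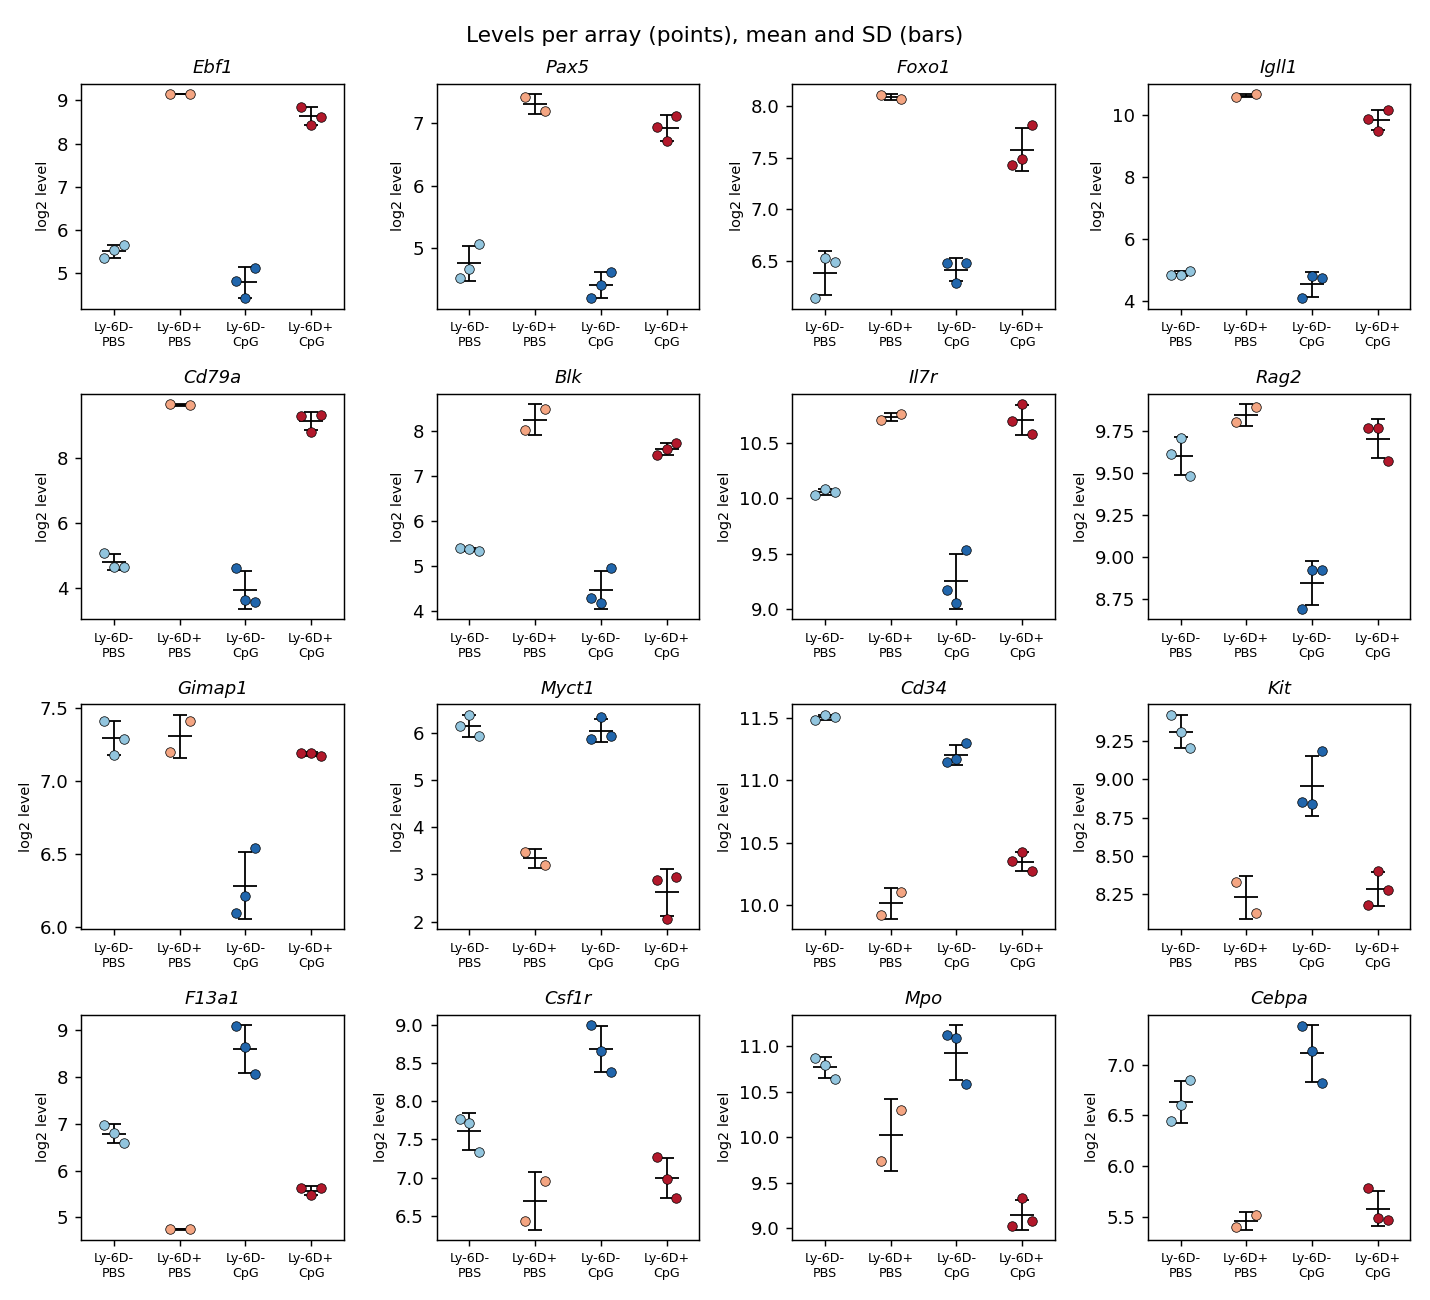
Each panel shows 1 gene's log2 level on every array (points) by population and treatment, with the group mean and SD (bars); the y axes differ between panels and do not start at 0. Ebf1, Pax5, Igll1 and Cd79a are high on all Ly-6D+ arrays under both treatments, and Csf1r and F13a1 are highest in Ly-6D- CLPs after CpG.

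The 15 genes with the largest differences upward held further genes outside those lists. Mzb1, an endoplasmic reticulum protein of B cells and plasmacytoid dendritic cells, read 8.84, 8.64 and 8.71 in Ly-6D+ CLPs and 5.53, 4.72 and 5.76 in Ly-6D- CLPs (difference 3.39, SE 0.23, adjusted p = 3.61e-05). Akap12, a kinase scaffold, read 7.19, 6.95 and 7.39 against 3.96, 3.73 and 3.96 (3.30, SE 0.18, adjusted p = 8.28e-06). Cecr2, a bromodomain chromatin protein, read 7.10, 6.82 and 6.91 against 3.64, 3.39 and 3.97 (3.28, SE 0.15, adjusted p = 1.62e-06). Arrays that do not overlap were a condition for choosing the 15, so their separation adds nothing. Lynx1, a GPI-anchored relative of Ly-6D, read 10.44, 10.67 and 10.59 against 7.38, 7.60 and 7.61 (3.03, SE 0.18, adjusted p = 1.59e-05). Gfra2, a coreceptor for neurturin, read 7.32, 6.58 and 7.44 against 4.46, 4.30 and 3.57 (3.0, SE 0.25, adjusted p = 1.69e-04). The 8 other Ly6 surface antigens measured differed by -0.38 to 1.22, and none passed.

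Of 13 plasmacytoid dendritic cell genes measured, 8 were higher in Ly-6D+ CLPs, against 1.20% of all genes. None was lower, and the list median was 0.72. The mean over the list was 8.89 to 9.04 on the Ly-6D+ CpG arrays against 7.90 to 8.06 on the Ly-6D- ones. Spib and Tcf4 of this list also act in B cells. Siglech, a sialic acid lectin that marks these cells, read 10.77, 10.82 and 10.83 against 7.84, 7.69 and 8.03, 7.73-fold higher (log2 2.95, SE 0.11, adjusted p = 4.93e-07). Ccr9, a homing receptor, was higher by 1.57 (adjusted p = 8.85e-04), the adaptor Pacsin1 by 1.28 (adjusted p = 0.00136), the cytochrome oxidase subunit gene Cox6a2 by 0.83 (adjusted p = 3.71e-04), the E protein gene Tcf4 by 0.64 (adjusted p = 0.00781) and the restriction factor Bst2 by 0.58 (adjusted p = 0.00850).

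The receptors for nucleic acids on this list were less firm. Tlr7, an RNA sensor, was higher by 0.59 (adjusted p = 0.0311), a call that ended in 8 of the 11 fits without 1 array, with an adjusted p of up to 0.130 without Ly-6D- CpG array 2. Tlr9, the receptor for the CpG given, read 7.89, 7.70 and 8.29 against 7.10, 7.41 and 7.21. The arrays did not overlap, but the difference of 0.72 (SE 0.19) did not pass (adjusted p = 0.0945). After PBS Tlr9 differed by 1.60 and passed (adjusted p = 0.00280), while Tlr7 differed by -0.21 without passing (adjusted p = 0.618). The gaps between treatments, -0.88 for Tlr9 and 0.80 for Tlr7, did not pass (adjusted p = 0.658 and 0.538). Irf8, the dendritic cell regulator, differed by 0.24 (95% interval 0.04 to 0.44, adjusted p = 0.281).

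Genes of the other lymphoid and dendritic branches were mixed. Of 15 early T-lineage and Notch genes, 3 were higher, against 1.20% of all genes. None was lower, and the list median was 0.12. The Notch target Hes1 read 6.32, 6.35 and 7.04 against 4.65, 4.55 and 5.19 (difference 1.77, SE 0.23, adjusted p = 0.00222), and Cd7 read 10.70, 10.71 and 10.96 against 9.39, 9.23 and 9.04 (1.57, SE 0.13, adjusted p = 1.64e-04). Cd7 is also found on plasmacytoid precursors, and the T-cell receptor component gene Cd3e differed by 0.39 without passing (adjusted p = 0.291). Thy1 was higher by 0.74 (adjusted p = 0.0357) but lost its call in 8 of the 11 fits without 1 array, with an adjusted p of up to 0.127 without Ly-6D- CpG array 2.

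Of 17 NK and innate lymphoid genes, 2 were higher and 1 lower, against 1.20% and 0.938% of all genes. The list median was 0.03. Il18r1, the interleukin-18 receptor, was higher by 1.15 (adjusted p = 0.00906, and 0.0551 in a fit of the 6 CpG arrays alone). Klrd1, which encodes CD94, was higher by 1.53 (adjusted p = 0.0180), a call lost without Ly-6D- CpG array 1 (adjusted p = 0.0798), Ly-6D- CpG array 2, Ly-6D+ CpG array 1 or Ly-6D+ CpG array 2. Nfil3, a factor needed early in NK development, read 6.41, 6.63 and 6.43 against 7.82, 7.77 and 7.25 and was lower by 1.12 on the log2 scale (difference -1.12, SE 0.15, adjusted p = 0.00261). Id2, the E protein inhibitor of innate lymphoid cells, read 7.39, 7.20 and 7.15 against 8.41, 8.0 and 7.59 without passing (-0.75, adjusted p = 0.0580). Id3, another E protein inhibitor, was higher by 1.76 (adjusted p = 0.0106), a call lost without Ly-6D- CpG array 2 (adjusted p = 0.0597), without all arrays numbered 3 (0.0611) and in a fit of the 6 CpG arrays alone (0.0726). Of 11 conventional dendritic cell genes 1 was higher and 1 lower, against 1.20% and 0.938% of all genes. Itgax (CD11c) differed by 0.86 (adjusted p = 0.0180, and up to 0.0752 without Ly-6D- CpG array 2) and the factor Batf3 by -0.89 (adjusted p = 0.0460, and up to 0.170 without Ly-6D- CpG array 2), and neither call held in all fits without 1 array.

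The Gimap genes are a cluster of lymphocyte survival GTPases. Of 8, 5 were higher in Ly-6D+ CLPs after CpG, against 1.20% of all genes. None was lower, and the list median was 0.89. Gimap4 read 8.87, 8.64 and 8.26 against 6.17, 6.87 and 6.40 (difference 2.11, SE 0.22, adjusted p = 5.77e-04), and Gimap1 read 7.19, 7.19 and 7.17 against 6.10, 6.21 and 6.54 (0.90, SE 0.12, adjusted p = 0.00316). Neither overlapped between populations, which held for every gene that passed. A second probe set of Gimap1 gave 0.76 with an adjusted p of 0.611. Gimap5 was higher by 0.87 (adjusted p = 0.00514), Gimap9 by 0.66 (adjusted p = 0.00891, and 0.0631 in a fit of the 6 CpG arrays alone) and Gimap6 by 0.76 (adjusted p = 0.0112), the last one lost without Ly-6D- CpG array 2 (adjusted p = 0.0532) or Ly-6D+ CpG array 2. Gimap3, Gimap7 and Gimap8 differed by 0.98, 1.06 and 0.81 with adjusted p-values of 0.0664, 0.0831 and 0.146.

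Of 15 genes of stem and multipotent progenitors measured, 8 were lower in Ly-6D+ CLPs, against 0.938% of all genes. None was higher, and the list median was -0.67. The lower count was 5 without Ly-6D+ CpG array 1, and it was 6 to 8 without any other single array. Myct1, a target of MYC in stem cells and endothelium, showed the largest difference of all genes downward: it read 2.87, 2.05 and 2.95 against 5.87, 6.32 and 5.92 (-3.41, SE 0.23, adjusted p = 3.42e-05). Cd34, the progenitor sialomucin, read 10.35, 10.42 and 10.27 against 11.15, 11.17 and 11.30 (-0.86, SE 0.09, adjusted p = 6.14e-04). Hlf, a stem cell factor, read 5.23, 5.8 and 5.5 against 6.62, 6.72 and 7.12 (-1.31, SE 0.16, adjusted p = 0.00157). None of the 3 genes overlapped between populations on any array, which held for every gene that passed.

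Lmo2, a bridging factor of haematopoietic complexes, was lower by 0.93 on the log2 scale (difference -0.93, adjusted p = 0.00901), a call lost without all arrays numbered 3 (0.0507) and in a fit of the 6 CpG arrays alone (0.0502). Angpt1, the ligand of TIE2, differed by -1.66 (adjusted p = 8.85e-04), while its second probe set gave -0.47 (adjusted p = 0.262). Mecom, which encodes EVI1, differed by -1.13 (adjusted p = 0.0144), while its second probe set gave -0.31 (adjusted p = 0.685), and the call was lost without Ly-6D+ CpG array 1 (adjusted p = 0.0608), Ly-6D+ CpG array 2 or Ly-6D- CpG array 2. Gata2 differed by -1.08 (adjusted p = 0.0376) and lost its call in 7 of the 11 fits without 1 array, with an adjusted p of up to 0.139 without Ly-6D- CpG array 2. Hoxa9 and Meis1, which act together in early progenitors, did not pass: the differences were -0.08 (95% interval -0.31 to 0.15) and -0.37 (adjusted p = 0.168). Ly6a was not analysed here.

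Of 15 monocyte genes measured, 5 were lower in Ly-6D+ CLPs, 10 did not pass and none was higher. The differences ran from -3.03 to 0.88 and were positive for 5 of the 15 genes. With a filter on dim genes 1 gene of the list passed as higher. The count higher was also 1 when a trend in the variance and robust estimation were used. The list median was -0.45, and it ran from -0.63 to -0.19 when single arrays were left out, the last without Ly-6D- CpG array 1. The mean over the list was 6.5 to 6.82 on the Ly-6D+ CpG arrays and 7.08 to 7.62 on the Ly-6D- ones. F13a1, the coagulation factor XIII chain of monocytes, read 5.62, 5.47 and 5.63 against 9.09, 8.65 and 8.06 (-3.03, SE 0.21, adjusted p = 4.09e-05). Ccr2, the receptor for monocyte chemoattractants, read 6.70, 6.76 and 6.64 against 8.95, 8.77 and 8.10 (-1.91, SE 0.19, adjusted p = 3.96e-04). Csf1r, the M-CSF receptor, read 7.27, 6.98 and 6.74 against 9.0, 8.66 and 8.39 (-1.69, SE 0.21, adjusted p = 0.00154). In all 3 genes Ly-6D- CpG array 3 was the lowest of its group. It was still above every Ly-6D+ array, which held for every gene that passed as lower.

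Klf4, a factor of monocyte differentiation, read 5.44, 5.62 and 5.47 against 7.08, 6.87 and 6.47 (-1.30, SE 0.16, adjusted p = 0.00142). Ms4a6c differed by -1.16 (adjusted p = 0.0102), and the call was lost without Ly-6D- CpG array 2 (adjusted p = 0.0562) or Ly-6D- CpG array 1. Itgam, which encodes CD11b of mature myeloid cells, read 7.27, 7.25 and 6.67 against 7.81, 7.58 and 7.39 and did not pass (-0.53, adjusted p = 0.206). Whether myeloid-primed or carried-over cells contributed to these values was not tested.

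Of 16 neutrophil and granule genes, 4 were lower, against 0.938% of all genes. None was higher, and the list median was -0.15. The list mean was 8.47 to 8.81 on the Ly-6D+ CpG arrays against 8.99 to 9.25. Those lower were Csf3r, given with the receptors, and 3 genes of primary granules, which early myeloid progenitors make: Ctsg read 8.55, 8.77 and 8.67 against 11.05, 11.18 and 10.85 (-2.36, SE 0.26, adjusted p = 8.06e-04), and Mpo read 9.03, 9.33 and 9.08 against 11.12, 11.09 and 10.58 (-1.78, SE 0.18, adjusted p = 4.63e-04). The last was Prtn3, proteinase 3, which read 8.15, 8.65 and 8.16 against 10.50, 10.39 and 9.88 (-1.93, SE 0.23, adjusted p = 0.00119). The same granules hold elastase, but Elane overlapped between populations (8.15, 8.76 and 8.04 against 8.66, 8.99 and 8.25) and did not pass (-0.32, 95% interval -1.07 to 0.44). Of genes that mature neutrophils make, S100a8 differed by -0.01 (95% interval -0.21 to 0.19), S100a9 by -0.03 (-0.26 to 0.19) and Camp by -0.00 (-0.36 to 0.36).

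Of 12 regulators and growth factor receptors of the myeloid branch measured, 6 were lower, against 0.938% of all genes. None was higher, and the list median was -0.62. The lower count was 4 without Ly-6D+ CpG array 1, Ly-6D+ CpG array 3, Ly-6D- CpG array 1 or Ly-6D- CpG array 2. Cebpa, which directs granulocyte and monocyte fate, read 5.78, 5.49 and 5.47 against 7.38, 7.13 and 6.82, 2.89-fold lower (log2 -1.53, SE 0.16, adjusted p = 5.74e-04). Spi1, which encodes PU.1, read 8.03, 8.10 and 8.08 against 9.06, 8.97 and 8.55 (-0.79, SE 0.13, adjusted p = 0.00944) and had an adjusted p of 0.0518 without Ly-6D- CpG array 2. Both genes were separated on all 6 arrays, as was every gene that passed. Csf3r, the G-CSF receptor, differed by -1.03 (adjusted p = 0.0196, and 0.0762 without Ly-6D+ CpG array 3), and its call also ended without Ly-6D+ CpG arrays 1 and 2 and Ly-6D- CpG arrays 1 and 3, each left out alone. Cebpb differed by -0.98 (adjusted p = 0.0188, and 0.0852 without Ly-6D+ CpG array 1), and its call also ended without Ly-6D+ CpG array 3, Ly-6D- CpG array 1 or Ly-6D- CpG array 2. Csf2rb2, a beta chain of the interleukin-3 receptor, ran the other way at 0.72 without passing (adjusted p = 0.134).

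Further genes among the 15 largest differences downward had no list. Ccl9, a chemokine of myeloid cells, read 6.94, 6.97 and 6.35 against 9.55, 9.55 and 9.11 (-2.65, SE 0.21, adjusted p = 1.04e-04). Krt18, a keratin, read 5.02, 4.40 and 4.48 against 7.08, 7.19 and 7.30 (-2.56, SE 0.21, adjusted p = 1.64e-04), and its second probe set gave -2.48 (adjusted p = 0.00488). Rab38, a GTPase of lysosome-related organelles, read 5.55, 5.51 and 5.44 against 7.80, 8.13 and 8.16 (-2.53, SE 0.18, adjusted p = 3.61e-05). Separate arrays were a condition for choosing these genes. Anxa3, an annexin, read 5.74, 6.22 and 5.35 against 8.64, 8.52 and 7.70 (-2.52, SE 0.27, adjusted p = 6.56e-04), and Pcp4l1 read 4.85, 4.72 and 4.49 against 7.24, 6.94 and 7.03 (-2.38, SE 0.16, adjusted p = 2.92e-05). Met, the receptor of hepatocyte growth factor, read 3.97, 4.72 and 4.32 against 6.91, 7.05 and 6.12 (-2.36, SE 0.31, adjusted p = 0.00274). Emcn, a sialomucin of stem cells and endothelium, read 3.55, 3.30 and 2.89 against 4.91, 5.5 and 5.27 (-1.98, SE 0.25, adjusted p = 0.00192), a call lost without all arrays numbered 3 (0.0603).

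Of the remaining 3, Tfec, a factor related to MITF, differed by -2.39 (SE 0.39, adjusted p = 0.00916, 0.0508 without Ly-6D- CpG array 2 and 0.0594 without all arrays numbered 3). Mc5r, a melanocortin receptor, differed by -2.44 (SE 0.46, adjusted p = 0.0207) and lost its call in 4 of the 11 fits without 1 array, with an adjusted p of up to 0.101 without Ly-6D- CpG array 2. Tmem178 differed by -1.81 (SE 0.34, adjusted p = 0.0194) and lost its call in 5, with an adjusted p of up to 0.0922 without the same array.

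**Figure D3:**
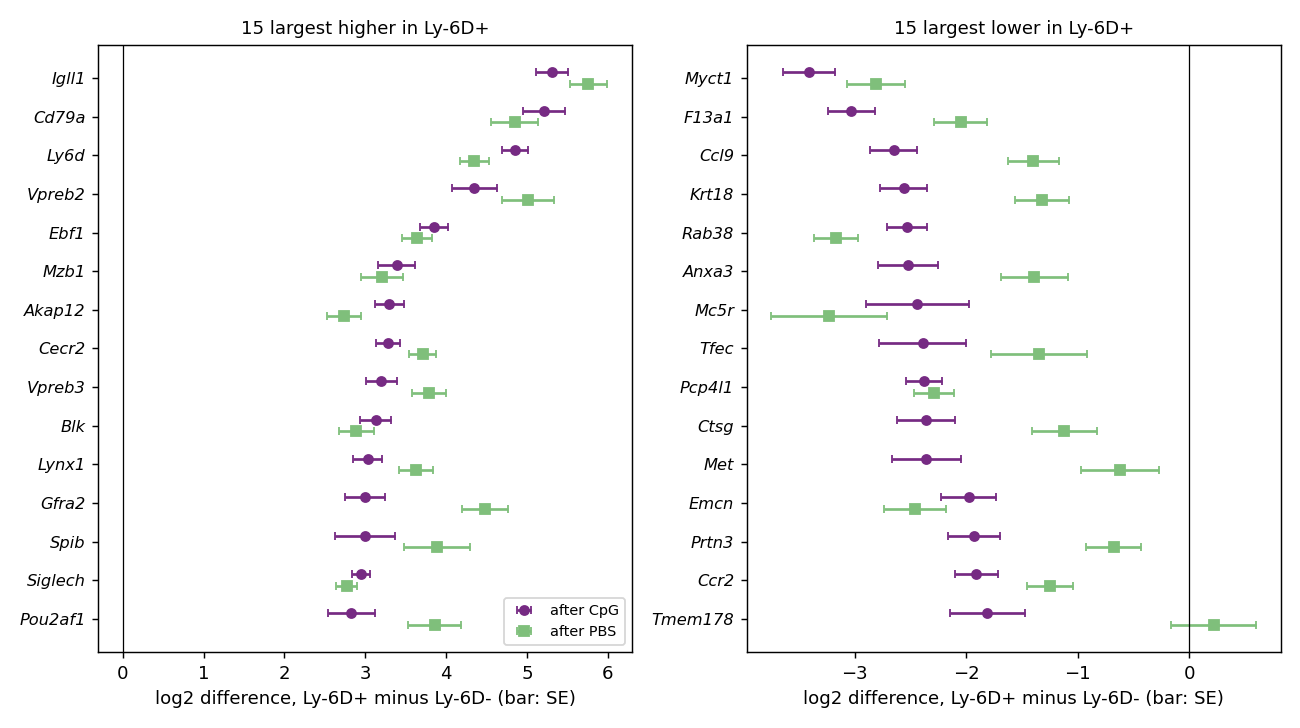
Log2 differences, Ly-6D+ minus Ly-6D- CLPs, for the 15 genes with the largest differences in each direction after CpG (circles), with the same genes after PBS (squares) and SE as bars. The genes were chosen on the CpG values; the PBS values come from other arrays, and Tmem178 lies at 0.22 there.

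Some mast cell and erythroid genes were lower. Of 14 measured, 4 were lower and 1 higher, against 0.938% and 1.20% of all genes. The list median was -0.08, and without any single array the lower count was 2 or 3. Car2, carbonic anhydrase 2, read 7.02, 7.12 and 6.84 against 8.45, 8.58 and 8.56 (-1.54, SE 0.12, adjusted p = 1.19e-04). Cpa3, the mast cell carboxypeptidase, read 5.69, 5.87 and 5.39 against 7.21, 7.44 and 7.19 (-1.63, SE 0.25, adjusted p = 0.00610). Mcpt8, a basophil protease, differed by -1.16 (adjusted p = 0.0353) and lost its call in 9 of the 11 fits without 1 array, with an adjusted p of up to 0.103 without Ly-6D- CpG array 2. Tfrc, the transferrin receptor that takes up iron, was the gene higher: 10.04, 10.15 and 10.21 against 9.33, 9.25 and 9.32 (0.83, SE 0.09, adjusted p = 6.27e-04).

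Genes of antigen presentation are known to be raised by CpG in dendritic and B cells. Of 10 MHC class II genes measured 1 passed, against 2.14% of all genes, and the median was 0.11. H2-Aa, an alpha chain, read 9.83, 10.04 and 9.30 against 9.70, 9.75 and 9.39, overlapping, with a difference of 0.11 (95% interval -0.30 to 0.53, adjusted p = 0.870). H2-Ab1 differed by -0.07 (-0.47 to 0.32), H2-Eb1 by 0.11 (-0.39 to 0.61) and the transactivator gene Ciita by 0.24 (-0.18 to 0.66). H2-Eb2 was the exception, at 6.13, 6.56 and 5.91 against 4.73, 4.63 and 4.56 (1.56, SE 0.20, adjusted p = 0.00219). Cd74 was not analysed here.

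Interferon genes were mixed. Of 14 interferon-gamma-inducible genes, 3 GTPase genes of the guanylate-binding protein family were higher, against 1.20% of all genes. None was lower, and the list median was -0.03. The higher count was 1 without Ly-6D- CpG array 1 or Ly-6D- CpG array 2. Gbp4 read 5.31, 5.89 and 5.87 against 4.11, 4.37 and 3.94 (1.55, SE 0.26, adjusted p = 0.0106), and Gbp8 and Gbp9 also differed by 1.55 (adjusted p = 0.0164 and 0.0160). The calls for the last 2 ended without Ly-6D- CpG array 2 (adjusted p = 0.0737 and 0.0691) and without some other single CpG arrays, and that for Gbp4 ended without all arrays numbered 3 (0.111). The family's copies are alike, so their signals may not be independent. The chemokine Cxcl10 ran the other way at -1.10 without passing (adjusted p = 0.0597), and Cxcl9 was spread widely, at 6.41, 6.60 and 5.45 against 8.03, 8.45 and 6.32 (-1.45, SE 0.50, adjusted p = 0.228). For both chemokines the arrays numbered 3 held the lowest level of each population.

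Of 18 type I interferon-stimulated genes 1 passed, against 2.14% of all genes, and the list median was -0.22. The gene that passed was Oasl2 (-0.96, adjusted p = 0.0464). Its call was lost in 7 of the 11 fits without 1 array, with an adjusted p of up to 0.177 without Ly-6D- CpG array 2. Of 15 genes of the Toll-like receptor pathway 2 passed, against 2.14% of all genes: Tlr7 above and Tlr1 (-1.15, adjusted p = 0.0470). The call for Tlr1 was lost in 9 of 11 such fits, with an adjusted p of up to 0.177 without the same array.

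Proliferation and survival genes did not pass after CpG. None of 15 G1/S genes, 16 G2/M genes or 12 Bcl2 family genes passed, and their medians were 0.08, 0.04 and -0.01. With 2.14% of all genes passing, the lack of a call in lists of this size says little about these genes. The G2/M genes lay between -0.22 and 0.21, the G1/S genes between -0.16 and 0.40, and the Bcl2 family between -0.70 and 0.42. Of 14 immediate-early genes, which respond to handling and stimulation, Ier3 alone passed, at 5.38, 5.78 and 6.03 against 7.0, 6.88 and 7.39 (-1.36, SE 0.19, adjusted p = 0.00325). After PBS the G1/S, G2/M and Bcl2 family medians were 0.18, 0.34 and -0.03, with 1 G1/S and 1 G2/M gene higher. In the limma test of the difference between treatments, 6 of the 16 G2/M genes had an unadjusted p below 0.05, against 6.37% of all genes. None of them passed that test.

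Some genes of later B cells passed. Of 11 mature B-cell and plasma-cell genes 2 were higher, against 1.20% of all genes, with a median of -0.04. They were Irf4, given above, and Sdc1, the syndecan CD138, at 9.98, 9.99 and 9.37 against 8.61, 8.21 and 8.55 (1.32, SE 0.17, adjusted p = 0.00236). A second probe set of Sdc1 gave 1.05 (adjusted p = 8.17e-04). Jchain, the joining chain of secreted antibody, read 6.27, 4.93 and 6.14 against 2.75, 3.46 and 3.38, without overlap but with an SE of 0.66, and its difference of 2.58 did not pass (adjusted p = 0.0902). Of 13 chemokine receptor and homing genes, Ccr9 was higher and Ccr2 lower, as given above, and the median was -0.02.

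**Figure D4:**
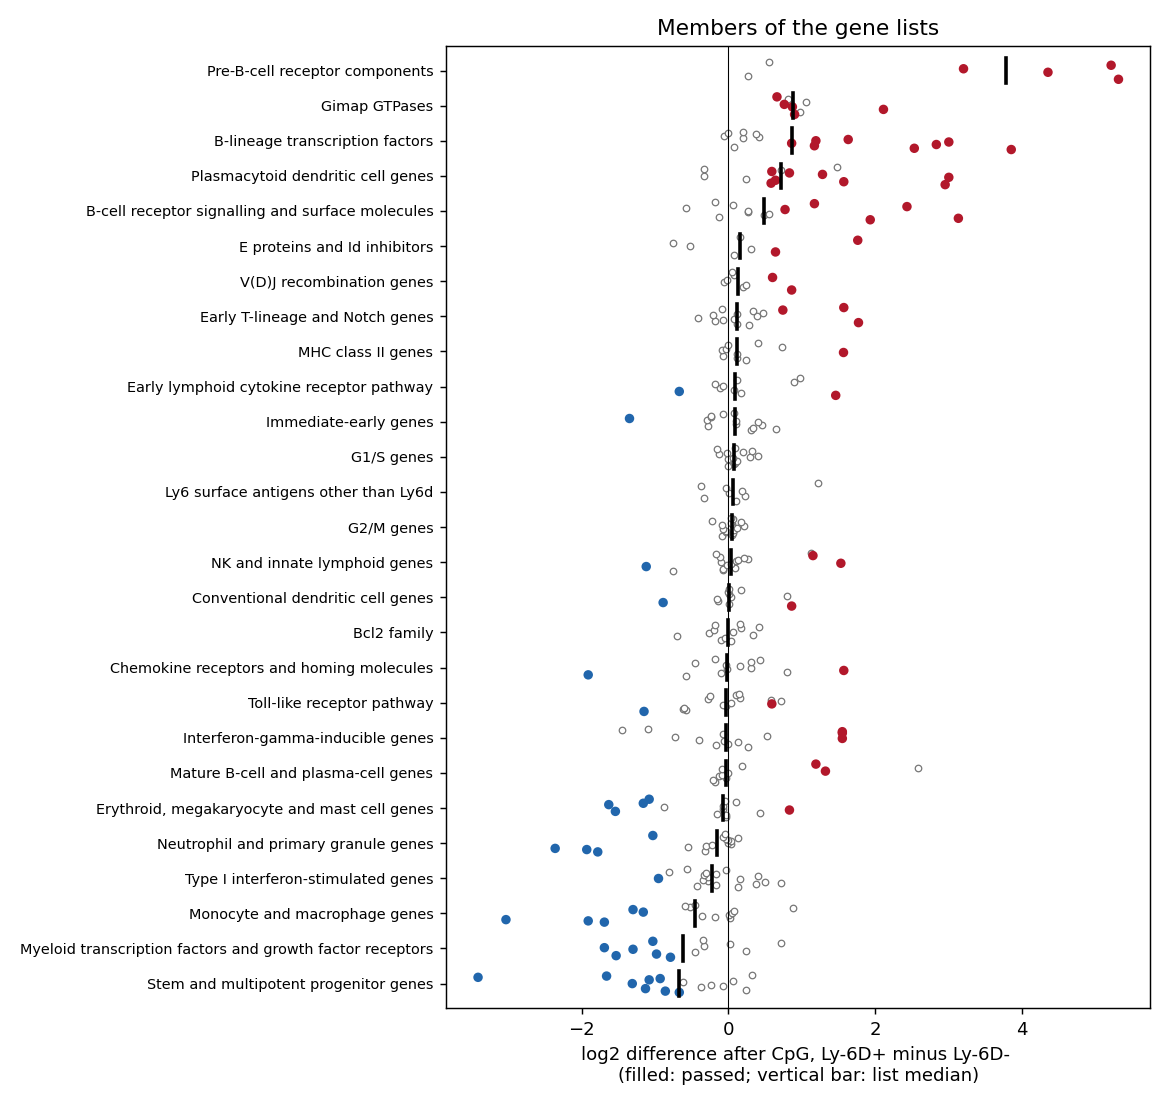
Log2 differences after CpG for the measured members of 27 gene lists, sorted by list median (vertical bars); red and blue points passed as higher and lower, open points did not pass. The pre-B-cell receptor list has the highest median, 3.77, and the stem and multipotent progenitor list the lowest, -0.67.

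The same contrast without CpG compared other arrays, but both came from 1 fit over all 11 arrays and shared its estimate of the spread, so the calls are not independent. After PBS, 439 genes (1.98%) differed, 262 higher (1.18%) and 177 lower (0.798%), with 2644 (11.9%) at an unadjusted p below 0.05. Both treatments called 138 genes higher, 51.9% of the CpG list and 52.7% of the PBS list, and 85 lower, 40.9% and 48.0%, and no gene was called in opposite directions. Of the 266 genes higher after CpG, 258 had the same sign after PBS, and for 235 the PBS arrays did not overlap in that direction, as they did not for 12.9% of all genes. Of the 208 genes lower after CpG, 192 kept the sign and 168 did not overlap, against 14.0% of all genes (26.9% in either direction). All PBS counts rest on 2 Ly-6D+ arrays, and leaving out Ly-6D+ PBS array 1 gave 111 higher and 74 lower, Ly-6D+ PBS array 2 gave 124 and 89, and Ly-6D- PBS array 2 gave 170 and 115.

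Igll1 differed by 5.76 after PBS and 5.31 after CpG, Cd79a by 4.85 and 5.21, Ebf1 by 3.64 and 3.85, and Pax5 by 2.57 and 2.53, and these 4 passed under both treatments. Of the 15 B-lineage transcription factors, 6 passed after PBS and 8 after CpG, and Irf4 (adjusted p = 0.0614) and Bach2 (0.145) did not pass after PBS. All 15 genes with the largest differences upward after CpG also passed after PBS, and 10 of the 15 downward. Those that did not were Tfec (-1.35, adjusted p = 0.190), Ctsg (-1.12, 0.0966), Met (-0.62, 0.564), Prtn3 (-0.68, 0.286) and Tmem178 (0.22, 0.902). These genes were picked for their size after CpG, so a smaller value after PBS is no sign of a difference between treatments.

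The test of the difference between the treatments called none of 22180 genes (0%, limma), with 1413 (6.37%) at an unadjusted p below 0.05, 676 positive and 737 negative, and a smallest adjusted p of 0.231. The standard error of this difference had a median of 0.21, against 0.14 for the population difference after CpG, so a miss does not show that the populations differed alike under both treatments. No gene can be called particular to CpG from these arrays. Without Ly-6D+ PBS array 1 a single gene passed, an immunoglobulin kappa variable segment (-6.35, SE 0.42, adjusted p = 0.00153) that was high on 1 array alone, at 8.44 on Ly-6D+ PBS array 2 against 1.74 to 3.11 on all others.

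Values of some genes with the smallest p-values of that test are given as descriptions. Others with p-values as small, such as Rhobtb3, Sv2a and Vldlr (adjusted p = 0.375 each), are left out. Gimap1 was added from its list and was not among the 8 smallest in its direction. Dok3, an adaptor that restrains B-cell receptor signals, read 5.67, 5.82 and 5.91 in Ly-6D+ against 6.18, 6.06 and 6.08 in Ly-6D- CLPs after CpG, and 6.63 and 6.32 against 5.53, 5.56 and 5.40 after PBS (difference of differences -1.28, SE 0.16, adjusted p = 0.231). Gcnt2, a glycosyltransferase, was lower in Ly-6D+ CLPs after both, by 1.05 and 2.33 on the log2 scale (differences -1.05 and -2.33, with 1.29 between them, adjusted p = 0.355). Other probe sets of Gcnt2 gave -0.61 (adjusted p = 0.101) and -0.95 (adjusted p = 0.0267) after CpG. Cd6, a lymphocyte surface receptor, differed by 1.06 after CpG (adjusted p = 6.52e-04) and by 0.02 after PBS, a gap of 1.04 (adjusted p = 0.375). Klf4 differed by -1.30 and -0.01, a gap of -1.29 (SE 0.23, adjusted p = 0.488). Gimap1 differed by 0.90 and 0.01 (adjusted p of the gap 0.488), since its Ly-6D- arrays read 7.41, 7.18 and 7.29 after PBS. Arpp21 differed by 1.12 and 0.31, and Gas7 by 0.88 and 1.92 (adjusted p of the gaps 0.488 and 0.375).

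Further genes differed by unequal amounts without passing that test. Il7r read 10.71 and 10.76 in Ly-6D+ and 10.03, 10.08 and 10.06 in Ly-6D- CLPs after PBS, a difference of 0.68 against 1.46 after CpG (gap 0.78, adjusted p = 0.583). Rag2 differed by 0.25 after PBS and 0.86 after CpG (adjusted p of the gap 0.622), and Mpo by -0.75 and -1.78 (0.622). Cd34 ran the other way, at -1.50 after PBS and -0.86 after CpG (0.501), as did Gfra2, at 4.48 and 3.0 (0.622). Over the lists, the monocyte median was -0.19 after PBS and -0.45 after CpG, with 1 gene higher and 2 lower after PBS. The neutrophil and granule median ran the other way, at -0.28 after PBS and -0.15 after CpG, as did Csf3r, at -1.53 and -1.03. The stem and progenitor median was -1.08 and -0.67, with 11 lower after PBS. The Gimap median was 0.37 after PBS, where Gimap4 alone passed, and 0.89 after CpG. The pre-B-cell receptor median was 4.32 after PBS, with 5 higher, and the plasmacytoid median was 0.72 under both treatments, with 7 higher after PBS. The plasmacytoid genes that passed were not all the same. Ccr9, Tcf4 and Tlr7 passed after CpG but not after PBS (adjusted p = 0.223, 0.176 and 0.618), and Tlr9 passed after PBS but not after CpG. The gaps between treatments, 0.99 for Ccr9 and 0.28 for Tcf4, did not pass (adjusted p = 0.622 and 0.822). Those for Tlr7 and Tlr9, given above, did not pass either.

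**Figure D5:**
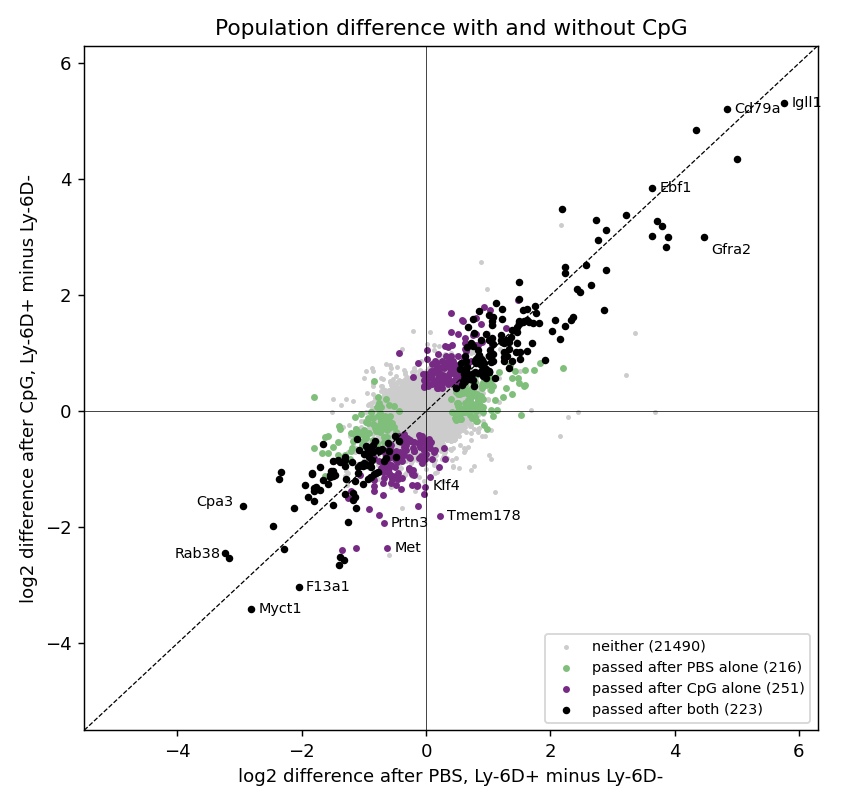
Each point is a gene, with its log2 difference between Ly-6D+ and Ly-6D- CLPs after PBS on the x axis and after CpG on the y axis; the dashed line marks equal values, and colours show where a gene passed (223 under both treatments). Igll1 and Cd79a lie near the line at the upper right, and Met, Prtn3 and Tmem178 lie below it with small values after PBS.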

How the data were processed

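Sorted CLPs were measured on 11 Affymetrix Mouse Gene 2.0 ST arrays, from 5 ng of RNA amplified by the NuGen SPIA method, of which 5 µg of cDNA was labelled, per the labels' protocols. The authors deposited log2 values from Partek's RMA (per the submitters' processing notes), with versions not given in the sources used here. Detection values were not used, so signal over background is unknown, and the number of arrays limits the precision. Array medians over all probe sets were 3.85 to 3.96.

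Of 41345 probe sets, 23521 had exactly 1 symbol in the platform table. For the 1082 genes with several such probe sets the one brightest on average over the 11 arrays was kept, which left 22180 genes. Symbols shared by probe sets were not analysed here. The 4 group means were fitted together with limma 3.58.1 in R 4.3.3 (7 residual and 3.48 prior degrees of freedom), and p-values were adjusted by Benjamini-Hochberg over all genes, with 0.05 as the threshold. Contrasts were the population difference after CpG, after PBS and their difference. SE is the moderated standard error, and intervals are 95%. The fit was tested on simulated data. Tables and figures used Python 3.11.15, pandas 2.3.3 and matplotlib 3.10.9.

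Named genes were the 15 largest differences in each direction that passed without overlap of arrays (predicted or numbered symbols passed over). They also included members of 27 gene lists that passed or, where none or few passed, had small p-values. Others came from the 8 smallest p-values in each direction of the difference between treatments, not all of which were described. The rest were a fixed set (Ly6d, Il7r, Flt3, Kit, Ebf1, Pax5, Tcf3, Foxo1, Rag2, Tlr9, Ciita, H2-Aa). Some list members that did not pass, such as Elane, S100a8, Hoxa9 and Cxcl9, were named after their values were seen, as was a kappa variable segment. The samples, lists and genes were chosen with earlier results of these data known. Alternatives were other probe set rules, a filter on dim genes, other variance models, scalings, a replicate block and leaving out arrays.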

Additional observations from a re-analysis of the deposited data

Results flagged for a closer look

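Among the 17824 probe sets without a single gene symbol, which the comparisons do not use, 41 passed the same test between Ly-6D+ and Ly-6D- CLPs after CpG when fitted by themselves (limma, adjusted over these probe sets), 30 higher and 11 lower. They are 0.230% of those probe sets, and 1391 had an unadjusted p below 0.05. They are listed because they lie outside the measurements described above.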

How the results depend on the processing

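Limits first: groups of 2 or 3 arrays, an amplified 5 ng input and no detection values mean that differences near the threshold are uncertain. Of 89 named genes that passed after CpG, 65 passed whichever array was left out and 58 under all alternatives; 22 of the 24 others were lost without Ly-6D- CpG replicate 2. Without all arrays numbered 3, 14 were lost (Tfec, Emcn, Kit, Bach2, Id3, Thy1, Tlr7, Itgax, Csf3r, Gata2, Lmo2, Mcpt8, Gbp4 and Oasl2), and a fit of the 6 CpG arrays alone lost 20. The counts after CpG, 266 higher and 208 lower, ran from 161 to 265 and from 103 to 251 when 1 array was left out, were 162 and 102 in a fit of the 6 arrays alone, 377 and 349 when a trend in the variance and robust estimation were used, and 166 and 134 without all arrays numbered 3. The counts after PBS, 262 and 177, ran from 111 to 248 and from 74 to 177 when 1 array was left out, were 100 and 90 in a fit of those groups alone, 163 higher without all arrays numbered 3, and 279 lower with the variance trend. The test of the difference between treatments called 0 genes under all alternatives but 1, the fit without Ly-6D+ PBS replicate 1, which called 1 gene. H2-Aa, which did not pass, ran from -0.05 without Ly-6D+ CpG replicate 2 to 0.32 without Ly-6D+ CpG replicate 3. The labels do not say what a replicate number marks, and the numbers were treated as unpaired because not every pair correlated above 0.1. Deviations of same-numbered CpG arrays correlated at 0.058, 0.096 and 0.176, though each CpG array correlated best with its own number. Those of the PBS arrays correlated at -0.006 and 0.028. The deviations of 2 Ly-6D+ PBS arrays from their mean mirror each other, so the PBS values cannot decide on pairing. Whether the numbers mark pairs is not settled by these values. With the replicate block, 240 genes were higher and 218 lower after CpG and 190 and 157 after PBS; with a replicate block within treatment, 181 and 180 after CpG and 119 and 88 after PBS. The block ended the calls of 5 named genes (Bach2, Tlr7, Batf3, Gata2 and Oasl2), and the block within treatment those of 13 (these and Tmem178, Kit, Xrcc6, Thy1, Itgax, Csf3r, Spi1 and Gimap6). The causes of these shifts were not tested.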
